A study of Homo sapiens with 6 samples.

Results

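The 10 genes described here encode enzymes that shape the branches of N-glycans, the sugar chains attached to asparagines of secreted and cell-surface proteins. They are MAN1A1, MGAT1, MAN2A1, MGAT2, MGAT3, MGAT4A, MGAT4B, MGAT5, FUT8 and B4GALT1, and they were taken by gene symbol from a table of 17721 genes. All 10 were found, and 9 were among the 13003 genes that passed a low-count filter and were tested. The genes were chosen by name with the counts and TPM of ACSS2 shRNA against control shRNA in view, MGAT4B above all, so their changes in it are a description and support nothing by themselves.

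The libraries came from MDA-MB-231BR cells, which were derived from human MDA-MB-231 breast cancer cells and home to the brain. In 3 libraries the cells stably expressed a short hairpin RNA (shRNA) against ACSS2, the enzyme that makes acetyl-CoA from acetate in the nucleus and cytosol. In the other 3 they stably expressed a control shRNA. Lentivirus carried the hairpins into the cells, which were selected with antibiotic and grown as monocultures. Each group is therefore a selected population of a single cell line, and whether the labels' ACSS2 shRNA stands for 1 hairpin or several was not stated. The study asked what ACSS2 contributes to breast cancer growth in the brain.

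N-glycans enter the Golgi as chains rich in mannose. Mannosidases trim them, and N-acetylglucosaminyltransferases, the products of the MGAT genes, then add N-acetylglucosamine at set positions, most of which start an antenna. MGAT4A and MGAT4B add the extra antenna on the arm that MGAT1 opens, and MGAT5 adds the extra antenna on the arm that MGAT2 opens. Galactose and sialic acid extend the antennae, and highly branched chains on receptors bind galectins at the cell surface. Branching by MGAT5 has long been studied in tumour invasion and metastasis.

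The libraries held 15048275 to 18608124 counts each, and a batch tag in the labels numbers the samples 1 to 3 in both groups. Libraries with the same number varied together, so each comparison was made without the number (unpaired fit) and with it as a block (paired fit). A gene was called at an adjusted p under 0.05. ACSS2 itself had 11.1, 50.5 and 88.7 CPM (counts scaled to libraries of equal size) in ACSS2 shRNA replicates 1, 2 and 3, against 76.3, 71.2 and 164 CPM in control replicates 1, 2 and 3. The groups overlap. The targeted gene fell in the paired fit (log2 fold change -1.31, SE 0.30, edgeR adjusted p = 0.00757) and was not called in the unpaired fit (-1.05, SE 0.64, adjusted p = 0.504). The authors' deposited comparison gives ACSS2 a log2 fold change of -1.07 and a q-value of 0.772. All 8 markers listed for MDA-MB-231 cells were detected, with a summed level of 8753 to 9694 TPM (the length-corrected level of the deposited table) in ACSS2 shRNA and 8390 to 8726 TPM in control libraries. In the paired fit 0 of the 8 were higher and 2 lower, CAV1 (-0.35, adjusted p = 0.0348) and CD44 (-0.57, adjusted p = 0.00598). Over all tested genes 12.7% were higher and 12.4% lower. Both calls were lost without replicate 2 (CAV1 -0.40, adjusted p = 0.141, and CD44 -0.57, adjusted p = 0.0692), and CAV1 also without replicate 3 (-0.30, adjusted p = 0.171). The 6 luminal markers summed to 20.5 to 27.3 TPM in ACSS2 shRNA and 21.2 to 25.7 TPM in control libraries. Of the 4 tested, 0 were higher and 1 lower in the paired fit, GATA3 (-0.95, adjusted p = 0.0102). Of 9 markers of other cell types, 6 were under 1 TPM in every library. The 9 summed to 43.1 to 72.3 TPM in ACSS2 shRNA and 51.4 to 80.1 TPM in control libraries, most of it from MBP, a myelin gene (log2 fold change -0.41, SE 0.12, adjusted p = 0.0220 in the paired fit), whose part in the results was not tested. The call of MBP was lost without replicate 1 (-0.31, adjusted p = 0.0622) and without replicate 2 (-0.47, adjusted p = 0.0797). In bulk RNA, fewer cells that express a gene and less RNA per cell cannot be told apart.

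MGAT4B had the largest change of these genes and rose in both fits. It had 600.4, 478 and 516 CPM in ACSS2 shRNA replicates 1, 2 and 3, against 205, 162 and 208 CPM in control replicates 1, 2 and 3. The groups lie far apart, and all 3 pairs moved the same way. The mean was 532 ± 62.6 CPM in ACSS2 shRNA cells and 192 ± 25.6 CPM in control cells (SD, n = 3 each). That is a 2.77-fold difference, with a log2 fold change of 1.47 in the unpaired fit (SE 0.18, edgeR adjusted p = 0.0415). In the paired fit it was 1.47 (SE 0.12, adjusted p = 1.48e-05). The log2 ratios of pairs 1, 2 and 3 were 1.55, 1.56 and 1.31. Only 86 of the tested genes had a larger log2 fold change in the paired fit. The authors' deposited table gives MGAT4B a log2 fold change of 1.44 and a q-value of 6.13e-09.

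The paired change of MGAT4B lay between 1.40 and 1.55 when any 1 replicate number was left out, and it was called each time. The unpaired change lay between 1.33 and 1.53 when any 1 library was left out, and it was called in none of these, with adjusted p between 0.0740 and 0.274. Scaling edgeR by DESeq2's size factors in place of TMM also ended the unpaired call (log2 fold change 1.44, adjusted p = 0.0633). Unpaired DESeq2 itself kept the call (1.44, adjusted p = 8.81e-10), and so did unpaired edgeR with no low-count filter (1.44, adjusted p = 0.0286). Unpaired limma kept it on log2(TPM + 0.1) (1.59, adjusted p = 0.0116) and on log2(TPM + 1) (1.58, adjusted p = 0.0147).

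**Figure D1:**
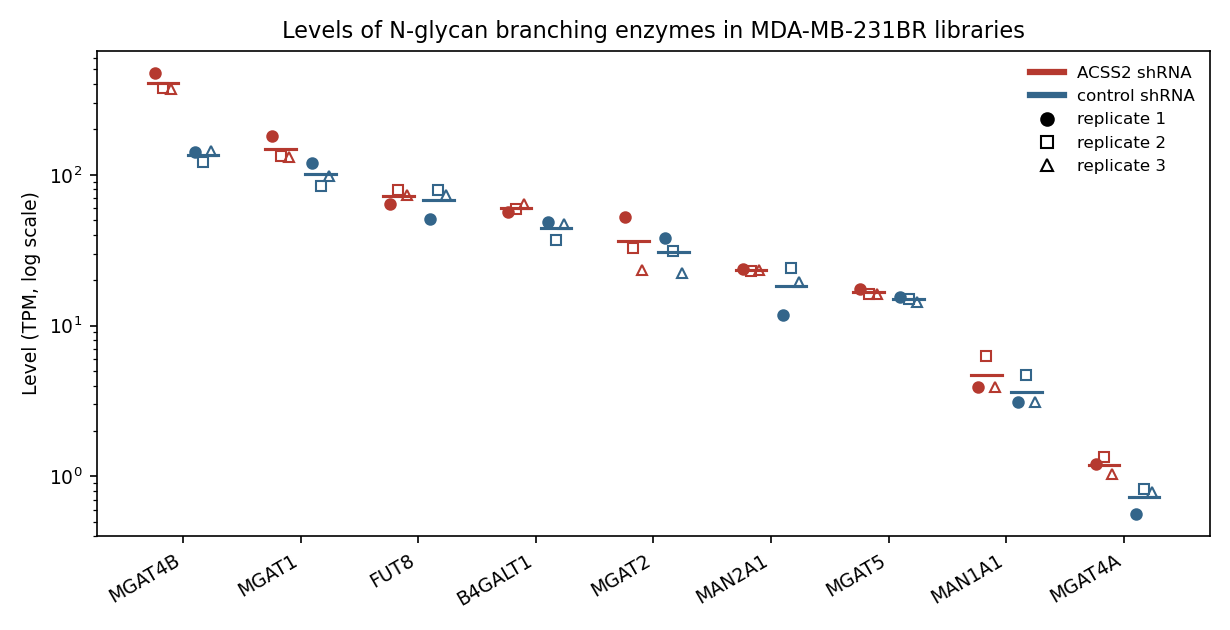
Level in TPM (log scale) of each tested branching enzyme in every library, with a bar at the group mean, ACSS2 shRNA in red and control shRNA in blue. MGAT4B sits at 371 to 475 TPM in ACSS2 shRNA and at 122 to 144 TPM in control libraries, and no other enzyme shows as wide a gap.

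MGAT4B (gene ID 11282) lies on the minus strand of chromosome 5 in band 5q35.3. GENCODE places its 23 transcripts, with up to 15 exons, between 179797597 and 179806952 on GRCh38. The deposited table gives the gene a wider interval, 179797597 to 179826543. SQSTM1, which encodes the autophagy receptor p62, runs the other way from the same place. Among the SQSTM1 starts in RefSeq, 1 lies 143 bases upstream of the MGAT4B start, and the 142 bases between lie in front of these 2 starts. Another SQSTM1 start, at 179806393, lies 473 bases beyond the MGAT4B start. SQSTM1 as GENCODE places it (179806398 to 179838078) therefore covers the whole stretch. The outermost GENCODE start of MGAT4B, at 179806952 on the minus strand, lies inside the stretch, so part of it is within MGAT4B in GENCODE. The 142 bases are shown because the change at this locus was largest for MGAT4B and smaller for SQSTM1, described below. The sequence is that stretch from RefSeq (GRCh38.p14, chr5:179806867-179807008), written 5′ to 3′ on the minus strand. The capitals mark the 3 matches to the GC box GGGCGG, read on either strand, of which the 2 near the SQSTM1 start at 179807009 share a base.
MGAT4B promoter: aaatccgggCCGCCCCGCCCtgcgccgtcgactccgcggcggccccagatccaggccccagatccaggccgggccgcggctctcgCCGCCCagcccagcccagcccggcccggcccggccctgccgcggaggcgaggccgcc

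Promoter windows, which run from 250 bases before a start to 50 bases after it, were found in RefSeq for 8 of the 10 genes. The exceptions were MGAT3 and MGAT4A. Both strands were searched for 3 motifs, of which CACGTG and ACGTGGC share the letters ACGTG, so that a single stretch can match both. The GC box GGGCGG, known as a binding motif of Sp factors, was in 12 of the 18 windows of these genes, among them 1 of 2 for MGAT4B and 3 of 6 for MGAT1, against 45.0% of 35116 windows of all genes. The median share of G and C was 67.5% in the 18 windows and 58.7% in all windows. The E-box CACGTG, known from nutrient responses, was in 0 of the windows of these 8 genes, against 7.26% of all windows. ACGTGGC, a core of stress response elements, was in 1 of 6 windows of MGAT1 and in none of the other 7 genes, against 3.22% of all windows. These are descriptions of letters, and no match means only that they are not in these windows.

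Of the 9 tested enzymes, the unpaired fit called 1 higher, MGAT4B, and 0 lower, where 0.0231% of all tested genes were called higher and 0.0461% lower. At an unadjusted p under 0.05 the unpaired fit passed 1820 genes, and unpaired DESeq2 called 1.64% of genes higher, MGAT4B the single enzyme among them. The paired fit called 2 of the 9 higher, MGAT4B and MGAT1, and 0 lower, and 7 were not called. Among all tested genes the paired fit called 12.7% higher and 12.4% lower. DESeq2 with the block also called 0 of the 9 lower, and 0 of the 9 were lower at an unadjusted p under 0.05 in either edgeR fit. The genes were chosen on this contrast, so nothing is read from these counts. The median paired log2 fold change was 0.27 over the 9 enzymes and 0.02 over all tested genes, and 8 of the 9 had a positive value.

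**Figure D2:**
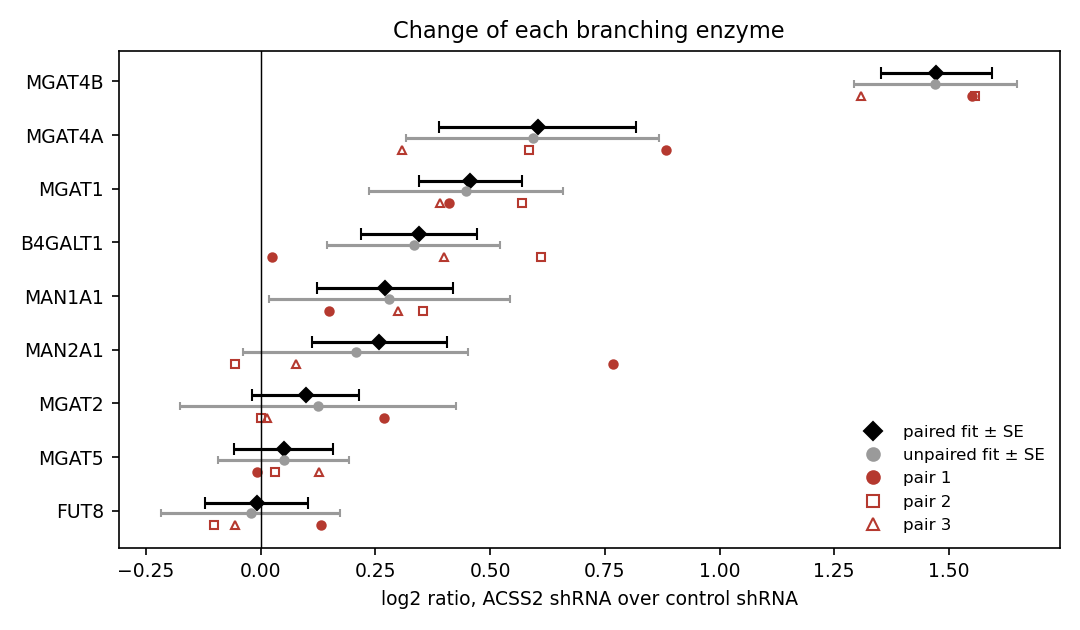
Log2 ratio of ACSS2 shRNA over control shRNA for each tested enzyme, from the paired fit (black, ± SE), the unpaired fit (grey, ± SE) and each pair of libraries (red). MGAT4B stands at 1.47, MGAT4A at 0.60 and MGAT1 at 0.46 in the paired fit, while FUT8 lies at -0.01 and MGAT5 at 0.05.

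The first enzymes prepare the chain for branching. MAN1A1 is a Golgi mannosidase that trims it before any antenna is started. It had 10.2, 16.3 and 11.2 CPM in ACSS2 shRNA replicates 1, 2 and 3, against 9.23, 12.7 and 9.11 CPM in control replicates 1, 2 and 3. Each ACSS2 shRNA library was above its partner, but the groups overlap, and MAN1A1 was not called (paired log2 fold change 0.27, SE 0.15, adjusted p = 0.199). MAN2A1 is the mannosidase that acts after MGAT1 and clears the second arm. It had 71.4, 78.0 and 79.7 CPM in ACSS2 shRNA replicates 1, 2 and 3, against 41.9, 81.1 and 75.6 CPM in control replicates 1, 2 and 3. Control replicate 1 stands low and the other control libraries lie near the ACSS2 shRNA libraries. The paired value of 0.26 (SE 0.15, adjusted p = 0.220) was not called and was 0.00 (adjusted p = 0.988) without replicate 1.

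MGAT1 adds the N-acetylglucosamine that every hybrid and complex chain needs, and MGAT2 starts the second antenna. MGAT1 had 264, 191 and 211 CPM in ACSS2 shRNA replicates 1, 2 and 3, against 199, 129 and 161 CPM in control replicates 1, 2 and 3. ACSS2 shRNA replicate 2 lies below control replicate 1, so the groups overlap in CPM, but each ACSS2 shRNA library was above its partner. MGAT1 rose in the paired fit (log2 fold change 0.46, SE 0.11, edgeR adjusted p = 0.0108) and was not called unpaired (0.45, adjusted p = 0.391). Leaving out replicate 2 ended this call (0.37, adjusted p = 0.197). MGAT2 had 73.2, 45.4 and 35.7 CPM in ACSS2 shRNA replicates 1, 2 and 3, against 60.8, 45.4 and 35.3 CPM in control replicates 1, 2 and 3. Both groups fall into the same order by replicate number, and MGAT2 was not called (paired log2 fold change 0.10, SE 0.12, adjusted p = 0.569).

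The extra antennae are set by MGAT4A and MGAT4B on one arm and by MGAT5 on the other. MGAT4A had 5.23, 5.78 and 4.90 CPM in ACSS2 shRNA replicates 1, 2 and 3, against 2.79, 3.82 and 3.94 CPM in control replicates 1, 2 and 3. Its groups do not overlap, but its level was low, at 49.5 to 94.5 expected counts over the 6 libraries, and it was not called (paired log2 fold change 0.60, SE 0.21, adjusted p = 0.0556). Of the blocked alternatives, it passed only the one with no low-count filter (0.58, adjusted p = 0.0485). MGAT5 had 76.2, 69.4 and 76.1 CPM in ACSS2 shRNA replicates 1, 2 and 3, against 76.5, 67.9 and 69.7 CPM in control replicates 1, 2 and 3. The groups lie on top of each other, and the paired log2 fold change was 0.05 (SE 0.11, adjusted p = 0.769). MGAT3, which adds a bisecting residue that hinders further branching, had expected counts of 0, 0 and 3.06 in ACSS2 shRNA replicates 1, 2 and 3, against 1, 1 and 4 in control replicates 1, 2 and 3, and was too low to test.

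FUT8 attaches the core fucose, and B4GALT1 adds galactose to antennae that the MGAT enzymes started. FUT8 had 147, 179.6 and 185 CPM in ACSS2 shRNA replicates 1, 2 and 3, against 134, 193 and 193 CPM in control replicates 1, 2 and 3. The groups overlap, with replicate 1 lowest in both, and the paired log2 fold change was -0.01 (SE 0.11, adjusted p = 0.967). B4GALT1 had 122, 127 and 152 CPM in ACSS2 shRNA replicates 1, 2 and 3, against 120.2, 83.4 and 115 CPM in control replicates 1, 2 and 3. Its groups do not overlap, although pair 1 differs little, and it was not called (paired log2 fold change 0.34, SE 0.13, adjusted p = 0.0635). Leaving out replicate 1 brought it past the threshold (0.50, adjusted p = 0.00942), and so did a blocked limma fit of log2(TPM + 1) (0.44, adjusted p = 0.0144).

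Groups that do not overlap were thus seen in CPM for 3 of the 9 enzymes, MGAT4B, MGAT4A and B4GALT1, each with ACSS2 shRNA above. Over all tested genes this held for 10.7% with ACSS2 shRNA above and for 9.63% with ACSS2 shRNA below. In TPM the groups of 5 of the 9 did not overlap, with ACSS2 shRNA above, MGAT1 and MGAT5 in addition, where 15.3% of all tested genes lay above and 6.41% below. TPM thus moves more genes upward than TMM-scaled counts. In a blocked limma fit of log2(TPM + 1), 68.2% of the called genes were higher, against 50.8% of the 3265 genes called by edgeR with the block, and the median log2 fold change over all genes was 0.08 higher.

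Levels between genes were compared in TPM, which corrects for length. In ACSS2 shRNA cells the order of the means ran from MGAT4B (409 ± 57.9 TPM) over MGAT1 (149 ± 28.9), FUT8 (72.2 ± 7.46) and B4GALT1 (60.1 ± 3.62) to MGAT2 (36.4 ± 15.1), MAN2A1 (23.3 ± 0.434), MGAT5 (16.6 ± 0.764), MAN1A1 (4.72 ± 1.36) and MGAT4A (1.19 ± 0.156 TPM). In control cells the order was the same, with MGAT4B at 136 ± 12.1 TPM, MGAT1 at 101 ± 18.5, FUT8 at 68.2 ± 15.2, B4GALT1 at 44.4 ± 6.53, MGAT2 at 30.6 ± 7.97, MAN2A1 at 18.4 ± 6.19, MGAT5 at 14.9 ± 0.565, MAN1A1 at 3.64 ± 0.935 and MGAT4A at 0.727 ± 0.146 TPM (SD, n = 3). MGAT3 was last in both groups. In both groups the ranges of MGAT2 and MAN2A1 overlap. In control cells this also held for B4GALT1 and MGAT2 and for MAN2A1 and MGAT5. MGAT4B was above 97.4% of tested genes in ACSS2 shRNA cells and above 91.6% in control cells by mean TPM.

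MGAT4B took a larger place among these transcripts in ACSS2 shRNA cells. It made up 54.2%, 52.0% and 52.5% of the summed TPM of the 10 genes in ACSS2 shRNA replicates 1, 2 and 3, against 32.7%, 30.6% and 34.0% in control replicates 1, 2 and 3. Without MGAT4B the other 9 genes summed to 402, 351 and 336.5 TPM in ACSS2 shRNA replicates 1, 2 and 3, against 290.01, 276 and 279.7 TPM in control replicates 1, 2 and 3. Each library held 2.61, 2.86 and 2.83 MGAT4B transcripts per MGAT1 transcript in ACSS2 shRNA replicates 1, 2 and 3, against 1.17, 1.45 and 1.46 in control replicates 1, 2 and 3. Per MGAT5 transcript the ratio was 27.2, 23.3 and 23.1 in ACSS2 shRNA replicates and 9.11, 8.15 and 10.02 in control replicates. Between the isoenzymes, MGAT4B supplied 99.6% to 99.7% of the summed MGAT4A and MGAT4B TPM in ACSS2 shRNA and 99.3% to 99.6% in control libraries.

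**Figure D3:**
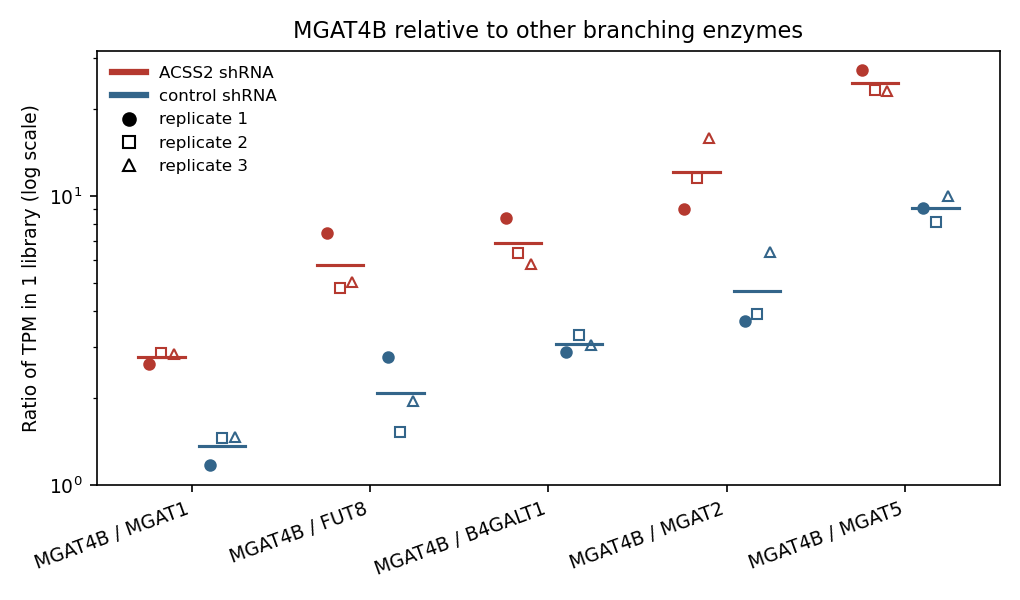
Ratio of MGAT4B to 5 other branching enzymes within each library, from TPM on a log scale, with a bar at the group mean, ACSS2 shRNA in red and control shRNA in blue. The ratio to MGAT1 is 2.61 to 2.86 in ACSS2 shRNA and 1.17 to 1.46 in control libraries, and the groups are apart for each of the 5 ratios.

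The genes were chosen with pairs of the same number in view, though not on differences between the numbers. The replicate number itself was tested in the paired fit, on the same 6 libraries. It was called for 4 of the 9 enzymes, MGAT1, MGAT2, FUT8 and MAN1A1, where 38.7% of all tested genes were called. MGAT2 changed most, with log2 differences from replicate 1 of -0.56 in replicate 2 and -0.91 in replicate 3 (edgeR adjusted p = 0.00116). FUT8 went the other way, with values of 0.41 and 0.43 (adjusted p = 0.0425). For MGAT1 they were -0.55 and -0.31 (adjusted p = 0.0194), and for MAN1A1 0.57 and 0.06 (adjusted p = 0.0373). MGAT4B was not called (-0.33 and -0.10, adjusted p = 0.170), nor were MGAT4A, MGAT5, MAN2A1 and B4GALT1.

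Other genes that overlap or resemble a member could take part of its reads. Counts were whole numbers, within 1e-06, in all 6 libraries for 8 of the 10 genes, and not whole in any library for MGAT4A and in 1 library for MGAT3, so part of their counts are estimates. Of the 5868 windows of 31 bases in GENCODE transcripts of MGAT4B, 0 also occur on the same strand of another gene, and 76 (1.30%) occur on the opposite strand, all in SQSTM1. For MGAT2, 90.8% of the windows lie opposite to the long non-coding RNA AL139099.1, and for FUT8 11.5% lie opposite to FUT8-AS1. No source used here states whether the counting took strand into account, so reads of these antisense pairs cannot be told apart.

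The neighbours of MGAT4B on chromosome 5 had smaller changes. SQSTM1 rose in the paired fit, with 1380.4 ± 413 CPM in ACSS2 shRNA and 895 ± 219 CPM in control cells (log2 fold change 0.61, SE 0.13, adjusted p = 0.00563). TBC1D9B, which encodes a Rab GTPase-activating protein, also rose, with 296 ± 42.9 CPM in ACSS2 shRNA and 208 ± 32.1 CPM in control cells (0.51, SE 0.11, adjusted p = 0.00699). Both calls were lost without replicate 2 (SQSTM1 0.62, adjusted p = 0.0717, and TBC1D9B 0.44, adjusted p = 0.124). In the deposited intervals, SQSTM1, TBC1D9B, MRNIP and MAML1 all overlap MGAT4B. MAML1 (0.07, adjusted p = 0.695), MRNIP (0.03, adjusted p = 0.938) and RNF130 (0.10, adjusted p = 0.547) were not called. Neither were CANX (0.30, adjusted p = 0.0808), HNRNPH1 (-0.09, adjusted p = 0.593) and RUFY1 (0.12, adjusted p = 0.439), and LTC4S was too low to test. The ratio of MGAT4B to TBC1D9B, in TPM, was 3.68, 3.90 and 3.73 in ACSS2 shRNA replicates 1, 2 and 3, against 1.85, 1.98 and 1.95 in control replicates 1, 2 and 3.

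Band 5q35.3 holds MGAT4B and MGAT1, and 47 of its genes were tested. In the paired fit 9 of the 47 (19.1%) were higher and 2 lower, beside 12.7% higher and 12.4% lower over all tested genes. The 9 include MGAT4B and MGAT1, which were chosen on this contrast, so the counts are a description. Leaving out MGAT4B gives 8 of 46 (17.4%) higher and 2 lower. For the 47 genes without replicate 1 the counts were 6 and 1, and without replicate 3 they were 7 and 2. Without replicate 2 they were 2 (4.26%) and 1, where 5.08% of all genes were higher. Those higher include GFPT2, which makes the precursor of UDP-N-acetylglucosamine, and B4GALT7, which acts in the linker of proteoglycans (0.40, adjusted p = 0.0349). TMED9 (0.37), RMND5B (0.47) and PHYKPL (0.45) were the others, beside MGAT4B, MGAT1, SQSTM1 and TBC1D9B. PRELID1 (-0.66) and RASGEF1C (-0.93) were lower. On the whole of chromosome 5, 86 of 588 tested genes were higher and 83 lower.

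**Figure D4:**
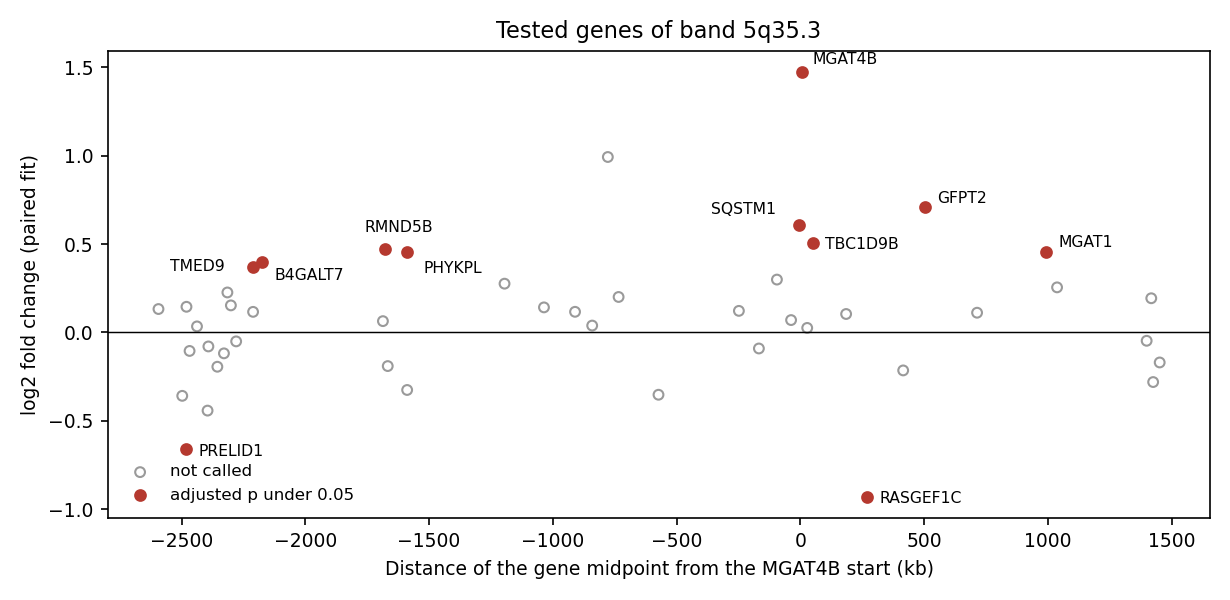
Paired log2 fold change of the 47 tested genes of band 5q35.3 against the distance of the gene midpoint from the MGAT4B start in kb, with called genes in red. MGAT4B stands highest at 1.47, with SQSTM1 at 0.61 and TBC1D9B at 0.51 beside it and other genes between them near 0. ZNF879, farther away, stands next highest at 0.99 and was not called (edgeR adjusted p = 0.0590).

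The closest relatives of these enzymes gave 2 genes higher and 0 lower among 9 tested in the paired fit. B4GALT5, a galactosyltransferase of the B4GALT1 family, had 215, 149 and 137 CPM in ACSS2 shRNA replicates 1, 2 and 3, against 99.9, 83.5 and 85.6 CPM in control replicates 1, 2 and 3. Its groups do not overlap, and it rose (log2 fold change 0.87, SE 0.12, adjusted p = 0.000393), a call it kept without any 1 replicate number. MGAT5B, the paralog of MGAT5 known from brain, rose as well (0.57, SE 0.18, adjusted p = 0.0328), a call lost without replicate 1 (0.54, adjusted p = 0.104) and without replicate 2 (0.31, adjusted p = 0.353). The mannosidases MAN1A2 (0.36, adjusted p = 0.0503), MAN1C1 (-0.34, adjusted p = 0.395) and MAN2A2 (0.15, adjusted p = 0.341) were not called. Nor were the galactosyltransferases B4GALT2 (0.25, adjusted p = 0.129), B4GALT3 (-0.31, adjusted p = 0.0711), B4GALT4 (0.34, adjusted p = 0.189) and B4GALT6 (0.40, adjusted p = 0.0753). MGAT4C, the MGAT4 paralog with no settled branching activity, was too low to test.

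Across 11 lists of the wider pathway, 163 genes were tested, and 32 were higher and 9 lower in the paired fit, with a median log2 fold change of 0.12. In the unpaired edgeR fit 0 of the 163 were called, while 16 were higher and 7 lower at an unadjusted p under 0.05, and unpaired DESeq2 called 1 higher and 2 lower. Where a list has 0 genes lower in the paired fit, DESeq2 with the block called 0 lower too, and at an unadjusted p under 0.05 the single exception was 1 paralog. Without replicate 2 the counts were 11 higher (6.71%) and 6 lower (3.66%), where 5.08% of all genes were higher and 7.02% lower. These lists were drawn up with earlier results of the same data known, so their counts with all replicates are descriptions beside the 12.7% higher and 12.4% lower over all genes.

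**Figure D5:**
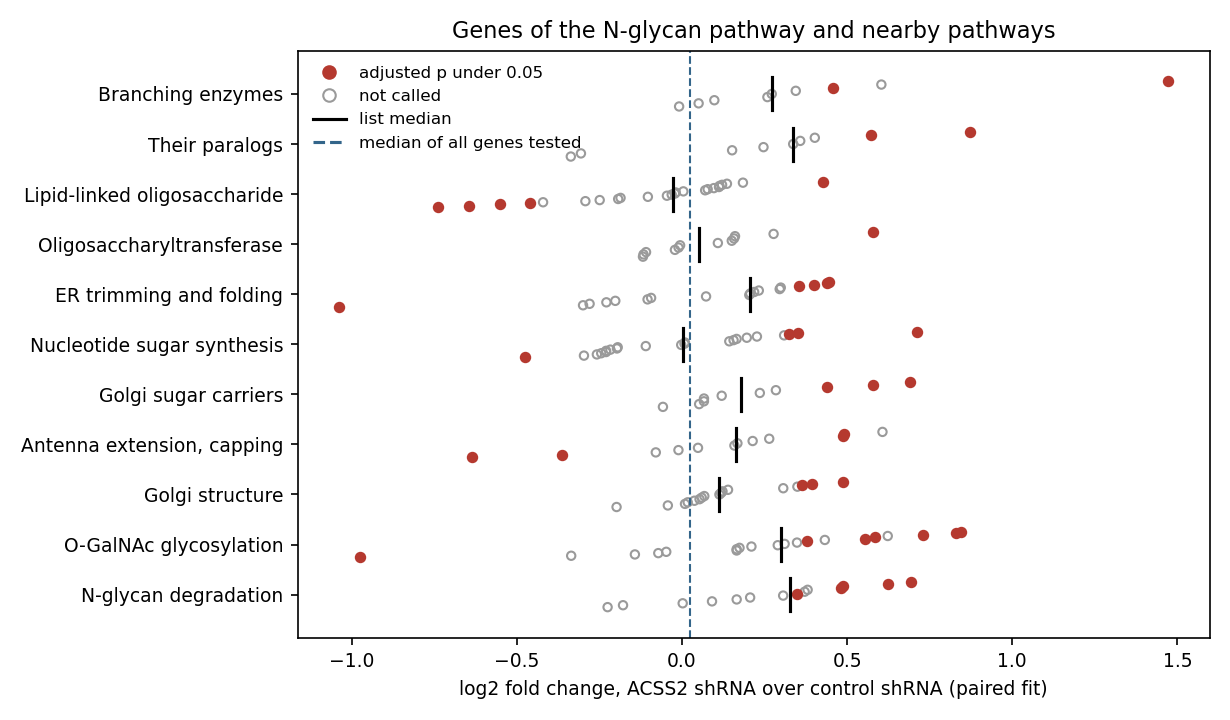
Paired log2 fold change of every tested gene in the branching enzymes, their paralogs and 9 further lists, with called genes in red, list medians as black bars and the median of all tested genes as a dashed line. List medians run from -0.03 for the lipid-linked oligosaccharide to 0.34 for the paralogs, and MGAT4B is the point farthest to the right.

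Before the Golgi, the chain is built on dolichol and moved to protein in the endoplasmic reticulum. Among 24 tested genes of lipid-linked oligosaccharide assembly, 1 was higher and 4 lower. ALG8, which adds glucose to the precursor, fell to 29.6 ± 6.11 CPM in ACSS2 shRNA cells, against 49.5 ± 11.4 CPM in control cells (log2 fold change -0.74, SE 0.12, adjusted p = 0.000927). DPM1, the catalytic subunit that makes dolichol-phosphate-mannose, fell (-0.65, SE 0.13, adjusted p = 0.00423), and so did its partner DPM3 (-0.46, SE 0.11, adjusted p = 0.0109), whose call was lost without replicate 2 (-0.48, adjusted p = 0.0557) and without replicate 3 (-0.43, adjusted p = 0.0541). Of 12 tested oligosaccharyltransferase subunits only MAGT1 was called, and it was higher (0.58, SE 0.11, adjusted p = 0.00253). OSTC (0.28, adjusted p = 0.113) and RPN1 (0.16, adjusted p = 0.318) came next and were not called.

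Trimming and folding in the endoplasmic reticulum gave 4 genes higher and 1 lower among 18. MAN1B1, the mannosidase that marks misfolded glycoproteins for disposal, had 44.3, 44.5 and 58.2 CPM in ACSS2 shRNA replicates 1, 2 and 3, against 107, 88.7 and 105 CPM in control replicates 1, 2 and 3. The groups are well apart, and MAN1B1 fell (log2 fold change -1.04, SE 0.12, adjusted p = 0.000139) whichever replicate number was left out. OS9, a lectin of the disposal route, rose (0.44, SE 0.11, adjusted p = 0.0124), as did PDIA3, a disulfide isomerase of the calnexin cycle (0.40, SE 0.11, adjusted p = 0.0215). Both calls were lost without replicate 2 (OS9 0.40, adjusted p = 0.126, and PDIA3 0.35, adjusted p = 0.238), and PDIA3 also without replicate 3 (0.38, adjusted p = 0.0883).

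UDP-N-acetylglucosamine is the donor for all MGAT enzymes, and GFPT1 and GFPT2 catalyse the first step of its synthesis. Among 22 tested genes of nucleotide sugar synthesis 3 were higher and 1 lower. GFPT2 had 217, 192 and 128 CPM in ACSS2 shRNA replicates 1, 2 and 3, against 159.7, 94.7 and 80.1 CPM in control replicates 1, 2 and 3, and rose (log2 fold change 0.71, SE 0.13, adjusted p = 0.00193). GFPT1 had 33.8, 37.7 and 50.3 CPM in ACSS2 shRNA replicates 1, 2 and 3, against 40.2, 61.1 and 70.0 CPM in control replicates 1, 2 and 3, and fell (-0.48, SE 0.12, adjusted p = 0.0135), a call lost without replicate 2 (-0.40, adjusted p = 0.121). The groups of both genes overlap, and the difference lies within the pairs. In TPM, GFPT2 made up 89.9%, 88.2% and 78.7% of the pair's sum in ACSS2 shRNA replicates 1, 2 and 3, against 84.7%, 68.7% and 63.5% in control replicates 1, 2 and 3. MPI, which links mannose to glycolysis, was also higher (0.35, SE 0.11, adjusted p = 0.0390), but not without replicate 2 (0.22, adjusted p = 0.459) or replicate 3 (0.40, adjusted p = 0.0620).

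Nucleotide sugar carriers of the SLC35 family, not all of them of the Golgi, gave 3 genes higher and 0 lower among 10. These were SLC35C2 (0.44, SE 0.12, adjusted p = 0.0179), SLC35D1 (0.69, SE 0.21, adjusted p = 0.0290) and SLC35D2 (0.58, SE 0.18, adjusted p = 0.0349). SLC35C2 lost its call without replicate 2 (0.29, adjusted p = 0.304), SLC35D2 without replicate 1 (0.26, adjusted p = 0.186), and SLC35D1 without replicate 1 (0.58, adjusted p = 0.128) or replicate 3 (0.53, adjusted p = 0.117). SLC35A3, the main carrier of UDP-N-acetylglucosamine into the Golgi, was not called (-0.06, SE 0.14, adjusted p = 0.798). Among 17 genes of Golgi structure and ion balance 3 were higher and 0 lower. TMEM165, which supplies the Golgi with manganese, rose (0.49, SE 0.11, adjusted p = 0.00634), though not without replicate 2 (0.43, adjusted p = 0.0887). GOLPH3, which holds glycosyltransferases in the Golgi, rose (0.36, SE 0.11, adjusted p = 0.0286), and so did the golgin GOLGB1 (0.39, SE 0.12, adjusted p = 0.0327). Leaving out replicate 1, 2 or 3 ended the calls of GOLPH3 (0.34, adjusted p = 0.0522, then 0.36, adjusted p = 0.160, then 0.35, adjusted p = 0.101) and GOLGB1 (0.27, adjusted p = 0.122, then 0.45, adjusted p = 0.0897, then 0.43, adjusted p = 0.0518).

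Antennae are finished by extension, sialic acid and fucose, and 2 of 12 tested genes of this step were higher and 2 lower. ST3GAL4, a sialyltransferase that caps galactose, fell to 45.4 ± 6.88 CPM in ACSS2 shRNA cells, against 70.7 ± 11.8 CPM in control cells (log2 fold change -0.64, SE 0.14, adjusted p = 0.00666). FUT4, a fucosyltransferase of the Lewis type, rose (0.49, SE 0.14, adjusted p = 0.0228), though not without replicate 1 (0.43, adjusted p = 0.0763) or replicate 2 (0.44, adjusted p = 0.155). FUT11 rose (0.49, SE 0.16, adjusted p = 0.0362), though not without replicate 2 (0.30, adjusted p = 0.355).

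O-GalNAc glycosylation, the other main kind of Golgi glycosylation, gave 6 genes higher and 1 lower among 20. GALNT10 (0.83, SE 0.11, adjusted p = 0.000331) and GALNT7 (0.85, SE 0.13, adjusted p = 0.000660), which add N-acetylgalactosamine, and the sialyltransferase ST3GAL2 (0.73, SE 0.11, adjusted p = 0.000859) rose, each whichever replicate number was left out. The gene called lower was GALNT5, of the same family as GALNT10 and GALNT7 (-0.98, adjusted p = 0.00126), and it kept its call in each leave-out. Lysosomal breakdown of N-glycans gave 5 genes higher and 0 lower among 14. MAN2B2, a lysosomal mannosidase (0.69, SE 0.11, adjusted p = 0.000889), and CTSA, the protective protein of lysosomal galactosidase and sialidase (0.63, SE 0.11, adjusted p = 0.00199), rose whichever number was left out. HEXA, a hexosaminidase subunit, rose too (0.49, SE 0.11, adjusted p = 0.00679), though not without replicate 2 (0.40, adjusted p = 0.112).

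Genes were ranked by how closely their log2 CPM followed MGAT4B over the 6 libraries, among the 10694 genes that averaged 5 CPM or more. The 5 most alike were PBXIP1 (Pearson r = 1.00), P3H4 (0.996), C20orf194 (0.994), RABL2B (0.993) and IRAK2 (0.993). The 6 libraries form 2 groups that are apart for each of these genes. A high value therefore rests on the group difference as well as on how the libraries vary within a group, and these parts were not separated. PBXIP1, which encodes a partner of PBX homeodomain proteins, had 83.3, 70.4 and 73.0 CPM in ACSS2 shRNA replicates 1, 2 and 3, against 34.2, 27.7 and 35.3 CPM in control replicates 1, 2 and 3. IRAK2, a kinase of interleukin receptor signalling, averaged 66.5 ± 6.24 CPM in ACSS2 shRNA and 35.8 ± 2.34 CPM in control cells. Among the branching enzymes, r with MGAT4B was 0.82 for MGAT1, 0.74 for B4GALT1, 0.47 for MGAT5, 0.30 for MAN2A1, 0.29 for MAN1A1, 0.20 for MGAT2 and -0.14 for FUT8. For the neighbour TBC1D9B it was 0.91.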

How the data were processed

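RNA of 3 ACSS2 shRNA and 3 control shRNA libraries was measured by RNA-seq, and per the submitters' processing notes the tools included RSEM, Bowtie2 and HISAT (versions and annotation not given in the sources used here). Per gene, the authors deposited expected counts, not normalized, and TPM made from them. They also deposited a comparison with a log2 fold change and a q-value per gene, on GRCh38 coordinates. Before use, 565 lines of spilled text were left out and 26 symbols turned into dates were restored.

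Expected counts were rounded and fitted in R 4.3.3 by edgeR 4.0.16 (quasi-likelihood F test, TMM, filterByExpr with minimum count 10 and minimum total 15). Benjamini-Hochberg adjustment covered all 13003 tested genes. The unpaired fit has no replicate term, and the paired fit has the replicate number as a block. The numbers come from the batch tag in the labels. Deviations from group means correlated by 0.716, 0.494 and 0.740 across genes between libraries of the same number, above the minimum of 0.1, and by at most -0.01 otherwise. CPM were scaled with the TMM factors, and ratios of pairs add 0.1 CPM. SE is the absolute log2 fold change over the square root of F. Each fit was checked on its own simulated data with 200 changed genes, made with the spread estimated in that fit. An assumed replicate effect was added only to the data for the paired fit. The unpaired fit recovered 3% of changes of log2 size 1 and 98.5% of log2 size 2, and the paired fit 100% of both. As the data differ, these shares do not compare the fits. The labels call the libraries of a group biological replicates. Counting error is part of the fitted spread.

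DESeq2 1.42.0 and limma 3.58.1 on log2 TPM (pseudocounts 1 and 0.1), other size factors, no filter and leaving out single libraries (unpaired) or numbers (paired) were tried as alternatives. The enzymes and all gene lists were chosen with earlier results of these data known. Named genes are ACSS2, the 10 enzymes, the tested paralogs and neighbours of MGAT4B, the 3 genes of smallest paired p in each other list and the 5 genes most like MGAT4B. SLC35A3, GALNT5, BSG, CD44, CAV1, GATA3, MBP and the other genes of band 5q35.3 lie outside this rule and were named after their values were seen. Transcript windows came from GENCODE and promoters from RefSeq.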

Additional observations from a re-analysis of the deposited data

How the results depend on the processing

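The replicate block changed most calls. Unpaired edgeR called 9 genes, DESeq2 518 and edgeR with no low-count filter 39. With the block the count was 3265, and it was 2576 with DESeq2, 3117 with other size factors (RLE), 3494 with no filter, 3324 with limma on log2(TPM + 0.1) and 3373 on log2(TPM + 1). Leaving out single libraries gave 0 to 6 genes unpaired, and leaving out a number with the block gave 2765 without replicate 1, 1581 without replicate 2 and 3109 without replicate 3. Of the branching enzymes 1 was called unpaired and 0 with RLE factors. With the block 2 were called, also with DESeq2 and with RLE factors, and 3 with no filter and with limma at either pseudocount. Leave-outs gave 0 unpaired and 1 to 3 with the block. MGAT4B was 1.44 with RLE factors (adjusted p = 0.0633) and between 1.33 and 1.53 in unpaired leave-outs, and was higher under every setting tried. Of the wider lists 0 genes were called by unpaired edgeR, 1 higher and 2 lower by unpaired DESeq2, and 41 by edgeR with the block. For the other enzymes 148 values kept their side of the threshold, 12 passed it in addition, and none changed direction while called. The causes of these changes were not tested. The planned check of levels with FPKM was not run, because those columns could not be read as a clean unit. With 3 libraries a group, the unpaired fit recovers few changes of log2 size 1.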

Other observations

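Among 15 tested cell-surface receptors known to carry branched N-glycans, 4 were higher and 2 lower in the paired fit. Over all tested genes 12.7% were higher and 12.4% lower. The receptors too were listed with earlier results of these data known, so the counts are a description. TGFBR2, a receptor of transforming growth factor beta, had 926, 624 and 506 CPM in ACSS2 shRNA replicates 1, 2 and 3, against 379.6, 253 and 287 CPM in control replicates 1, 2 and 3. The groups do not overlap, and TGFBR2 rose (log2 fold change 1.14, SE 0.13, adjusted p = 0.000175). ICAM1, an adhesion molecule for leukocytes, rose (0.77, SE 0.12, adjusted p = 0.000877), and so did the integrin chain ITGA3 (0.72, SE 0.13, adjusted p = 0.00231), though ITGA3 not without replicate 2 (0.60, adjusted p = 0.0853). None of these was called in the unpaired edgeR fit (adjusted p = 0.118 for TGFBR2, 0.102 for ICAM1 and 0.123 for ITGA3). Unpaired DESeq2 called all 3 higher, with adjusted p of 0.00424 for TGFBR2, 0.00253 for ICAM1 and 0.00765 for ITGA3, and 1 receptor lower, the hyaluronan receptor CD44 (log2 fold change -0.59, adjusted p = 0.0302). BSG, the heavily glycosylated basigin, fell in the paired fit to 706 ± 179.5 CPM in ACSS2 shRNA cells, against 1109.5 ± 196 CPM in control cells (-0.66, SE 0.16, adjusted p = 0.0104). Unpaired DESeq2 did not call BSG (-0.68, adjusted p = 0.123).

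Galectins, the lectins that bind branched chains, gave 2 genes higher and 0 lower among 5 tested. LGALS8 averaged 172 ± 18.1 CPM in ACSS2 shRNA and 123 ± 12.1 CPM in control cells (paired log2 fold change 0.49, SE 0.12, adjusted p = 0.0103), and its call was lost without replicate 2 (0.40, adjusted p = 0.143). LGALS3 averaged 124 ± 4.45 CPM in ACSS2 shRNA and 90.9 ± 16.7 CPM in control cells (0.46, SE 0.13, adjusted p = 0.0189), a call lost without replicate 1 (0.31, adjusted p = 0.0837) and replicate 2 (0.41, adjusted p = 0.130). LGALS3BP, a secreted galectin ligand, was not called (0.33, SE 0.13, adjusted p = 0.0848).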
